A study of Mus musculus with 9 samples.

Results

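The genes described here are the fatty acid desaturases *Fads1*, *Fads2* and *Fads3* and the elongases *Elovl1*, *Elovl2*, *Elovl3* and *Elovl5*, measured in mouse liver. They were taken by name, as every probe set whose only gene symbol in the array annotation is on that list. Each gene had 1 probe set, which gave 7 members among 21780 probe sets with a single symbol and 28815 probe sets in all. RNA came from the livers of 9 female mice aged 15 to 16 months on a C57BL/6J background, and each was run on a Mouse Gene 1.0 ST array, with 1 mouse per array. The WTCR group held 3 wild-type mice on short-term calorie restriction (CR), in which the daily ration was lowered in successive steps. The *Dgat1*-/-AL group held 3 mice that lack *Dgat1*, whose product joins the final acyl chain to diacylglycerol to make triglyceride, and that ate chow freely. The WTAL group held 3 wild-type mice that ate the same chow freely and served as controls for both. The mutation is constitutive and present in every tissue, whereas the restriction was brief and began in middle age, and neither is specific to the liver. The fat composition of the restricted ration, the hour of killing and the time since the last meal were not given in the sources used here.

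Mammals cannot make linoleic and alpha-linolenic acid and lengthen these dietary fatty acids in the liver to arachidonic and docosahexaenoic acid. Desaturases add double bonds and elongases add carbons in alternation. FADS2 takes the opening step, ELOVL5 lengthens its product, FADS1 adds the next double bond, and ELOVL2 extends the longest polyunsaturated chains. Shortening in peroxisomes is the last step to docosahexaenoic acid. ELOVL1 and ELOVL3 act mainly on saturated and monounsaturated chains, and ELOVL3 is best known from brown fat and skin. FADS3 acts on sphingoid bases. In liver, the transcription factors SREBP-1c, LXR alpha and PPAR alpha are known regulators of several of these genes, and polyunsaturated fatty acids themselves hold many of them down.

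The sequences just upstream of the transcription starts of *Fads2*, *Elovl2* and *Elovl5* are shown because these are the members that were lower in WTCR than in WTAL livers. They are the 250 bases before the RefSeq start in GRCm38.p6, at chr19:10101504-10101753 on the minus strand for *Fads2*, at chr13:41220404-41220653 on the minus strand for *Elovl2* and at chr9:77917115-77917364 on the plus strand for *Elovl5*. Each is written 5′ to 3′ along its own gene. Capitals mark every match, on either strand, to GGGCGG (GC box), CCAAT (written ATTGG where it lies on the other strand) and CACGTG (E-box).
Fads2: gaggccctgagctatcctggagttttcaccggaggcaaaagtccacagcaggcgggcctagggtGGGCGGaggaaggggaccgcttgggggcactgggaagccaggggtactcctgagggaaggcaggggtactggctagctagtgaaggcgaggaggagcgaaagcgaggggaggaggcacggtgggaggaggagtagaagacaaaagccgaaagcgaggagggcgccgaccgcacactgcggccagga
Elovl2: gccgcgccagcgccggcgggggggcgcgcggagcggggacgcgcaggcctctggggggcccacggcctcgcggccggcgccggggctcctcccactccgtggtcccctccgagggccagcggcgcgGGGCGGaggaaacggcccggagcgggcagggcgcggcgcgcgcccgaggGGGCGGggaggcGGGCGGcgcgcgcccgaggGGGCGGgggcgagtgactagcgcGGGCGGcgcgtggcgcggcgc
Elovl5: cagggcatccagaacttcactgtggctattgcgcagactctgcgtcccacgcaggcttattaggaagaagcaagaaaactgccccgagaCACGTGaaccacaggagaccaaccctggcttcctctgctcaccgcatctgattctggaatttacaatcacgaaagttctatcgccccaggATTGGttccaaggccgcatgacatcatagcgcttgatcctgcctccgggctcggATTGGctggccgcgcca
*Fads2* held GGGCGG at 1 position and *Elovl2* held it at 5, a motif present at least once in 32.7% of all 32851 promoter windows of this length. The share of windows that held it 5 times was not computed. Of the members not shown, *Elovl1* held it at 5 and *Fads3* at 2, in windows that were not at their outermost RefSeq start. *Elovl5* held CCAAT at 2 positions, found at least once in 33.8% of windows, and CACGTG at 1, found in 6.02%. No capital stretch overlaps another. None of the 3 windows held TCACCCCAC (sterol regulatory element, 0.496% of windows), TGACGTCA (cyclic AMP response element, 1.55%), TTATGTAA (D-box, 0.819%) or 2 copies of AGGTCA set 1 base apart (a direct repeat bound by nuclear receptors, 0.0335%), which says only that these letters are not in these windows. RefSeq windows were matched for 5 of the 7 members, all but *Fads1* and *Elovl3*. On chromosome 19 the RefSeq gene order is *Fads3*, *Gm29917* (a long noncoding RNA gene), *Fads2*, *Gm50359* (a pseudogene), *Fads1*.

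All values are log2 signals after RMA, the authors' background correction, quantile normalization and probe summary, so that a difference of 1 is a factor of 2. *Dgat1* served as the check on the labels. Its log2 signal was 8.89, 8.76 and 8.56 in WTCR, 6.13, 5.83 and 5.39 in *Dgat1*-/-AL, and 7.86, 5.67 and 8.04 in WTAL livers, so the array labelled WTAL replicate 2 goes against its label. On the second principal component *Dgat1*-/-AL replicate 1 lay at -42.1 and the other 8 arrays at -15.9 to 15.3. Hepatocyte markers were near the top of every array, and the mean log2 signal of the 8 was 13.29 to 13.41 in WTCR, 13.20 to 13.34 in *Dgat1*-/-AL and 13.19 to 13.27 in WTAL livers. The 8 Kupffer cell markers averaged 7.71 to 8.42 in WTCR, 7.87 to 8.33 in *Dgat1*-/-AL and 8.04 to 8.73 in WTAL livers. Against WTAL, 2 were lower by the call rule in WTCR and 2 in *Dgat1*-/-AL livers, where 3.81% and 0.76% of all probe sets were lower. The 7 measured adipocyte markers averaged 4.80 to 4.98 over all arrays. In WTCR against WTAL livers 1 of the 8 hepatocyte markers and 1 of the 7 adipocyte markers were called higher and 0 lower, where 4.25% of all probe sets were higher. None of either list was called in *Dgat1*-/-AL livers against WTAL. In whole liver, fewer cells of a type and less RNA per cell cannot be told apart, and the part of cell makeup in the member values was not tested.

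Of the 7 members, 3 were called lower with CR, and none was called lower with the loss of *Dgat1*. These 3 are among the 4 that work on polyunsaturated chains, and the calls of *Fads2* and *Elovl5* ended without WTCR replicate 2. Those 4 were also the brightest members, at percentiles 96.6 to 98.3 of mean signal, against 41 to 84.9 for the rest. *Elovl6*, which lengthens saturated chains and is not a member, was called lower with CR as well (log2 fold change -1.09). Its call also ended without WTCR replicate 2. A gene was called where its fold change exceeded 1.3 at an unadjusted limma p under 0.05, the rule of the study's comparison, and p was also adjusted over all 28815 probe sets. By this rule 3 of 7 members were lower in WTCR than in WTAL livers (*Fads2*, *Elovl2* and *Elovl5*) and 0 were higher, while 3.81% of all probe sets were called lower and 4.25% higher. *Elovl2* alone also passed at an adjusted p under 0.05, as did 1.41% of all probe sets in the lower direction. Its adjusted p ran from 0.017 to 0.099 over 19 alternative fits. In 1 of these, the mean of a gene's probe sets, the main fit is only repeated, because each member had 1 probe set. *Elovl2* and *Elovl5* were lower in each WTCR liver than in any WTAL liver, as were 8.44% of all probe sets. The median log2 fold change of the 7 members was -0.31, against 0.00 over all probe sets. In *Dgat1*-/-AL against WTAL livers 1 member was called higher (*Elovl3*; background 0.465%) and 0 lower (0.76%), and the median over members was -0.06. No probe set passed the adjusted limma p in that comparison, although 1316 (4.57%) had an unadjusted p under 0.05. Without the array labelled WTAL replicate 2 and *Dgat1*-/-AL replicate 1 together, 2 members were called lower in WTCR than in WTAL (*Fads2* and *Elovl2*) and 0 were called in *Dgat1*-/-AL against WTAL. With 7 members chosen by name the counts describe this family and are not a test of it, and both comparisons share the WTAL arrays.

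**Figure D1:**
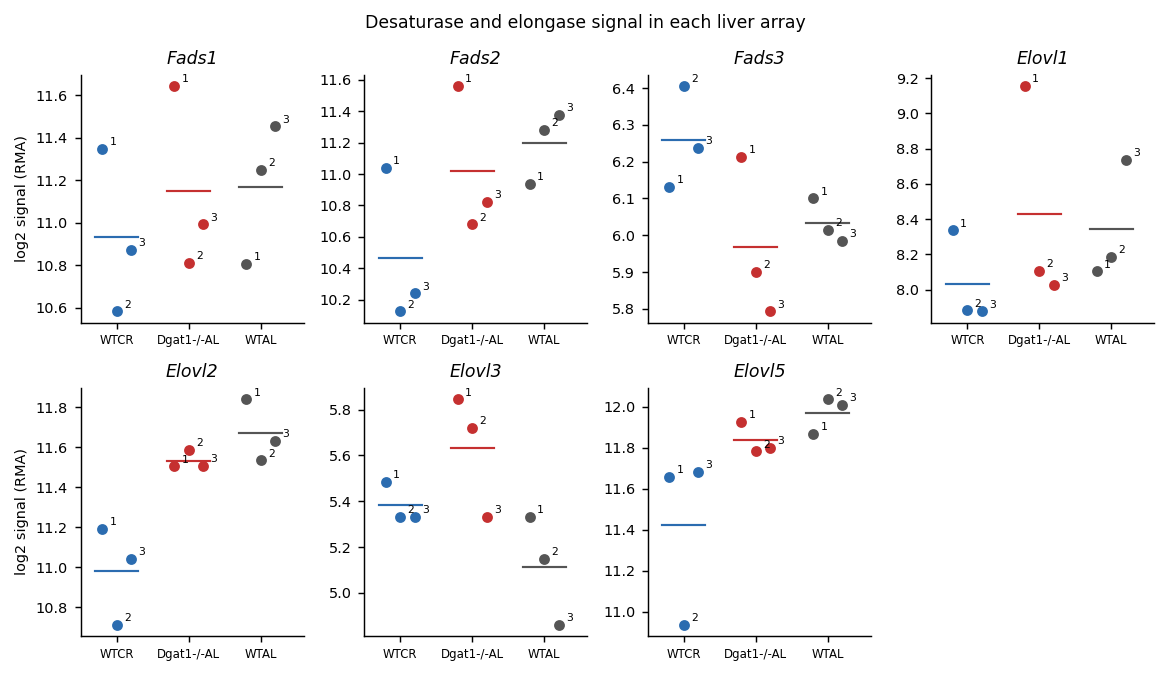
Log2 signal after RMA (y axis, scaled separately for each gene) of the 7 members in each liver array, by group (x axis); points are single mice with the replicate number beside them and lines are group means. *Elovl2* and *Elovl5* lie lower in all 3 WTCR livers than in any other liver, and the *Fads1*, *Fads2* and *Elovl1* points of *Dgat1*-/-AL replicate 1 stand above the rest of their group.

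*Fads2*, the desaturase of the opening step, had log2 signals of 11.04, 10.12 and 10.24 in WTCR, 11.56, 10.68 and 10.82 in *Dgat1*-/-AL, and 10.94, 11.28 and 11.38 in WTAL livers. WTCR replicates 2 and 3 were the lowest of the 9, but WTCR replicate 1 lay above WTAL replicate 1, so the groups overlapped. WTCR was 1.66-fold lower than WTAL (log2 fold change -0.73 ± 0.29, SE, n = 3 per group, adjusted p = 0.27 from limma), with a 95% confidence interval of -1.39 to -0.07. The call ended without WTAL replicate 2 (-0.69) or 3 (-0.64) and without WTCR replicate 2 (-0.56) or 3 (-0.62). In *Dgat1*-/-AL livers the log2 fold change was -0.18 ± 0.29, with an interval of -0.84 to 0.48 that includes both 0 and the value seen with CR.

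*Fads1*, the desaturase that forms arachidonic acid, lies beside *Fads2* and did not share its call. Its log2 signal was 11.35, 10.58 and 10.87 in WTCR, 11.64, 10.81 and 10.99 in *Dgat1*-/-AL, and 10.81, 11.25 and 11.45 in WTAL livers. The 3 groups overlapped throughout, with replicate 1 highest in WTCR and in *Dgat1*-/-AL but lowest in WTAL. The log2 fold change was -0.24 ± 0.27 in WTCR (interval -0.85 to 0.38) and -0.02 ± 0.27 in *Dgat1*-/-AL (-0.63 to 0.59).

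*Fads3* had signals of 6.13, 6.41 and 6.24 in WTCR, 6.21, 5.90 and 5.79 in *Dgat1*-/-AL, and 6.10, 6.01 and 5.98 in WTAL livers. It ran the other way from *Fads2*, since each WTCR liver lay above each WTAL liver, as was true of 11.2% of all probe sets. The difference was small, 0.23 ± 0.12 on the log2 scale (adjusted p = 0.43 from limma), and under the fold rule. Against *Dgat1*-/-AL livers it was 0.29 ± 0.12 (adjusted p = 0.27), also under the fold rule, and without *Dgat1*-/-AL replicate 1 it became 0.41 and was called higher.

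*Elovl2*, which extends the longest polyunsaturated chains, showed the firmest difference of the family. Its log2 signal was 11.19, 10.71 and 11.04 in WTCR, 11.50, 11.59 and 11.51 in *Dgat1*-/-AL, and 11.84, 11.53 and 11.63 in WTAL livers. All 3 WTCR livers lay below the other 6, and the *Dgat1*-/-AL livers overlapped with WTAL. WTCR was 1.61-fold lower than WTAL (-0.69 ± 0.13, SE, n = 3 per group, adjusted p = 0.028 from limma), and the 95% interval was -0.97 to -0.40. The fold and unadjusted p of the rule held under all 19 alternative fits, 1 of which repeats the main fit. Each mouse left out in turn gave -0.79 to -0.55. The adjusted p rose above 0.05 in some of these, among them the fits without WTAL replicate 1 (0.099), 2 (0.0503) or 3 (0.098). In *Dgat1*-/-AL livers the log2 fold change was -0.14 ± 0.13 (interval -0.42 to 0.15).

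*Elovl5*, which lengthens the products of FADS2, had log2 signals of 11.66, 10.94 and 11.68 in WTCR, 11.93, 11.78 and 11.80 in *Dgat1*-/-AL, and 11.87, 12.04 and 12.01 in WTAL livers. WTCR replicate 2 was far below the other 8, and WTCR replicates 1 and 3 lay just under the lowest *Dgat1*-/-AL liver, so that WTCR overlapped with neither group. WTCR was 1.46-fold lower than WTAL (-0.55 ± 0.18, interval -0.95 to -0.14, adjusted p = 0.18 from limma). Without WTCR replicate 2 the difference was -0.30 and no longer met the fold rule. Without the array labelled WTAL replicate 2 and *Dgat1*-/-AL replicate 1 together it was -0.51 and also not called. The *Dgat1*-/-AL log2 fold change was -0.13 ± 0.18 (interval -0.54 to 0.28), and those livers overlapped with WTAL.

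*Elovl1*, an elongase of very long saturated chains, had signals of 8.34, 7.88 and 7.88 in WTCR, 9.16, 8.11 and 8.03 in *Dgat1*-/-AL, and 8.10, 8.19 and 8.73 in WTAL livers. *Dgat1*-/-AL replicate 1 was the highest of the 9 and the other livers of its group lay among or below the WTAL values. The log2 fold change was -0.31 ± 0.30 in WTCR (interval -1.0 to 0.38) and 0.09 ± 0.30 in *Dgat1*-/-AL (-0.60 to 0.78). Without *Dgat1*-/-AL replicate 1 the *Dgat1*-/-AL value turned to -0.27.

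*Elovl3* was the member called in *Dgat1*-/-AL livers. Its log2 signal was 5.49, 5.33 and 5.33 in WTCR, 5.85, 5.72 and 5.33 in *Dgat1*-/-AL, and 5.33, 5.15 and 4.86 in WTAL livers. *Dgat1*-/-AL replicates 1 and 2 were the highest, and replicate 3 tied with WTAL replicate 1. The *Dgat1*-/-AL mean was 1.43-fold higher than WTAL (0.52 ± 0.15, SE, n = 3 per group), and the adjusted p from limma was 0.97. The call held under 18 of 19 alternative fits, 1 of which repeats the main fit, and ended at 0.43 without both arrays that stand apart. The gene was dim here. Its mean signal stood at percentile 41 of all probe sets, and 4 of the 9 arrays gave the same value of 5.333, while 23.4% of the probe sets in the middle 33.3% by signal had a value shared by at least 4 arrays. In WTCR livers the log2 fold change was 0.27 ± 0.15 (interval -0.08 to 0.62), and without WTAL replicate 1 it was 0.38 and called.

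**Figure D2:**
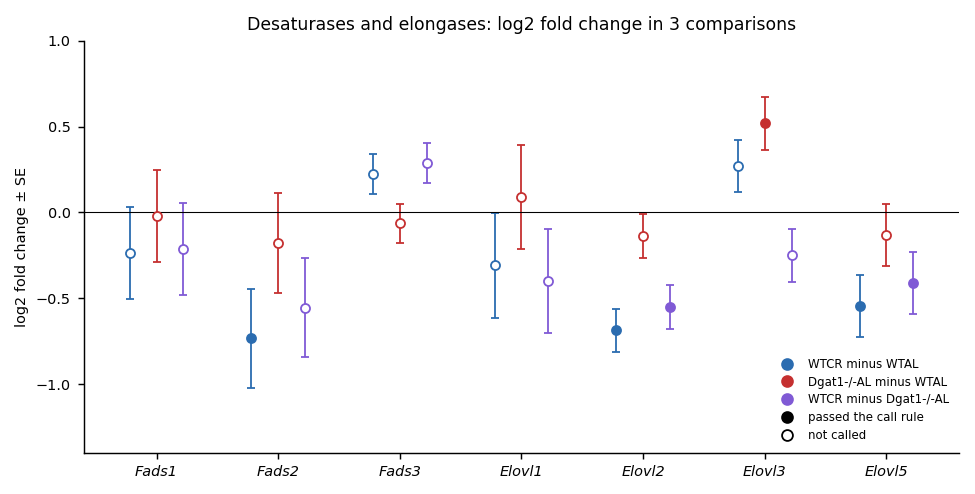
Log2 fold change ± SE from limma (y axis) of each member (x axis) in WTCR minus WTAL, *Dgat1*-/-AL minus WTAL and WTCR minus *Dgat1*-/-AL, each from 3 livers per group; filled points passed the call rule and open points did not. *Fads2*, *Elovl2* and *Elovl5* are filled below 0 for WTCR minus WTAL, and *Elovl3* is the only filled point above 0.

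WTCR and *Dgat1*-/-AL livers were then compared directly, which tests whether the 2 effects differ. In this comparison 2 members were lower in WTCR (*Elovl2* and *Elovl5*) and 0 were higher, against 3.93% and 4.66% of all probe sets. For both, all WTCR livers lay below all *Dgat1*-/-AL livers, as did 7.1% of probe sets. The *Elovl2* log2 fold change was -0.55 ± 0.13 (1.46-fold lower, adjusted p = 0.058 from limma, interval -0.84 to -0.26). This call held under all 19 alternative fits, 1 of which repeats the main fit, with an adjusted p of 0.033 to 0.16 in them. *Elovl5* was lower by -0.41 ± 0.18 (1.33-fold, adjusted p = 0.31), with an interval that reached almost to 0. Its call ended under 15 of 19 alternative fits, among them the fit with the replicate number as a block, in which the same difference had an adjusted p of 0.32. That block left 1 member called, *Elovl2*. *Fads2* gave -0.55 ± 0.29 (adjusted p = 0.42, interval -1.21 to 0.10) and was not called. It passed the rule when the arrays were quantile-normalized again (-0.64, adjusted p = 0.32) and without WTCR replicate 1 (-0.84, adjusted p = 0.15). With the replicate block and only these 2 groups in the fit, a choice made after the data were seen, the *Fads2* difference was -0.55 ± 0.06 and passed the rule (adjusted p = 0.055 from limma). For *Fads1*, *Elovl1* and *Elovl3* the direct log2 fold changes were -0.22, -0.40 and -0.25, each with an interval that included 0. The *Elovl3* difference became -0.40 and was called without *Dgat1*-/-AL replicate 3.

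Some livers were high or low within their group for several members together. *Dgat1*-/-AL replicate 1 lay above its group mean by 0.50 for *Fads1*, 0.54 for *Fads2* and 0.73 for *Elovl1* but differed by -0.03 for *Elovl2* and 0.09 for *Elovl5*. WTCR replicate 1 was above its group mean by 0.41 for *Fads1*, 0.57 for *Fads2* and 0.31 for *Elovl1*. WTAL replicate 1 was below its own by -0.36 for *Fads1*, -0.26 for *Fads2* and -0.24 for *Elovl1*. *Fads1* and *Fads2* therefore deviated in the same direction in all 9 livers, and *Elovl5* in WTCR replicate 2 (-0.49) went with *Elovl2* (-0.27) in that liver. These are descriptions of 9 arrays that share their normalization.

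**Figure D3:**
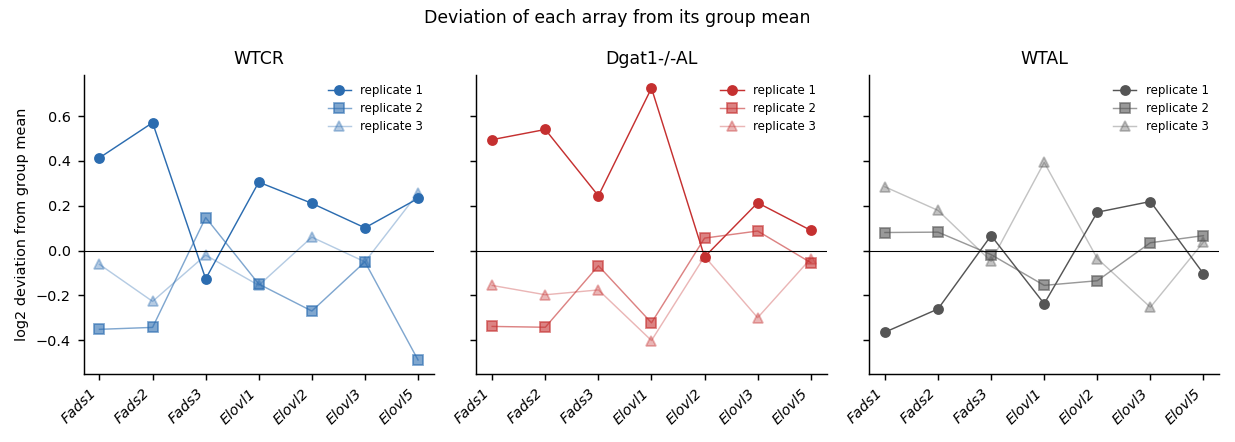
Deviation of each array from its group mean in log2 signal (y axis) for the 7 members (x axis), with a panel per group and a line per replicate. Replicate 1 is high for *Fads1*, *Fads2* and *Elovl1* in the WTCR and *Dgat1*-/-AL panels and low for the same genes in the WTAL panel.

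Since *Fads1* and *Fads2* moved together between mice, their difference within each array varied less than either gene. This quantity was chosen after the values were seen and is given without a test, and its absolute level carries no meaning because 2 probe sets differ in brightness. *Fads2* minus *Fads1* on the log2 scale was -0.31, -0.46 and -0.63 in WTCR, -0.08, -0.13 and -0.17 in *Dgat1*-/-AL, and 0.13, 0.03 and -0.08 in WTAL livers. All 3 WTCR livers lay below the other 6, and the highest *Dgat1*-/-AL value fell just under the lowest WTAL value. The means were -0.47 ± 0.16 in WTCR, -0.13 ± 0.04 in *Dgat1*-/-AL and 0.03 ± 0.10 in WTAL livers (SD, n = 3 each). Whether the 2 genes changed unequally was not tested, and the intervals of their log2 fold changes against WTAL overlap.

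**Figure D4:**
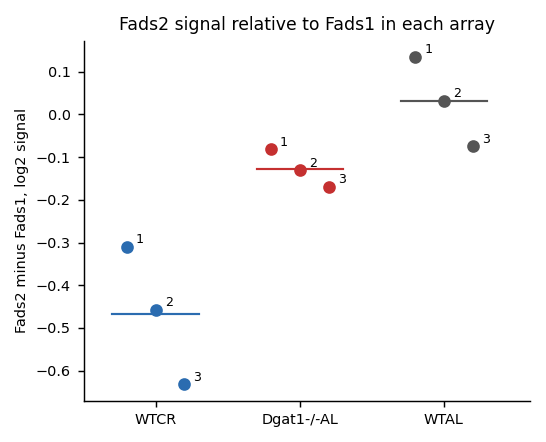
*Fads2* minus *Fads1* log2 signal within each array (y axis) by group (x axis); points are single livers with the replicate number and lines are group means. The 3 WTCR livers lie at -0.63 to -0.31, below every *Dgat1*-/-AL and WTAL liver.

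The remaining genes of desaturation and elongation were examined next, as a list of 17. It held the stearoyl-CoA desaturases, *Fads6*, the other elongases, the enzymes that complete each elongation cycle, and genes of the cytochrome b5 system, which carries electrons to desaturases. In WTCR against WTAL livers 1 of 17 was lower and 0 higher, against 3.81% and 4.25% of all probe sets, with a median log2 fold change of -0.13. The gene was *Elovl6*, which lengthens palmitate to stearate. Its signals were 9.20, 7.78 and 9.06 in WTCR, 9.33, 9.76 and 9.89 in *Dgat1*-/-AL, and 9.25, 9.74 and 10.31 in WTAL livers, so that WTCR lay below both other groups and replicate 2 furthest. It was 2.13-fold lower than in WTAL (-1.09 ± 0.39, adjusted p = 0.22 from limma). The call ended without WTCR replicate 2 (-0.64), as it did without WTAL replicate 2 or 3. *Scd1*, the main hepatic stearoyl-CoA desaturase, was not called in any comparison, at -0.13 ± 0.25 in WTCR and 0.04 ± 0.25 in *Dgat1*-/-AL against WTAL. None of the 17 was called in *Dgat1*-/-AL livers against WTAL (median 0.04).

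In WTCR against *Dgat1*-/-AL livers 5 of the 17 were lower and 0 higher (median -0.10), against 3.93% and 4.66% of all probe sets. *Elovl6* differed by -0.98 (adjusted p = 0.26 from limma), *Hacd1*, a dehydratase of the elongation cycle, by -0.54 (adjusted p = 0.20) and *Cyb5b*, an outer mitochondrial membrane cytochrome b5, by -0.49 (adjusted p = 0.099). The *Elovl6* call ended without WTCR replicate 2 (-0.53), *Dgat1*-/-AL replicate 2 or 3, or WTAL replicate 2. That of *Hacd1* ended without WTCR replicate 1 (-0.34) or *Dgat1*-/-AL replicate 2 or 3, and that of *Cyb5b* without WTCR replicate 2 (-0.34). The others were *Hacd2* (-0.41, adjusted p = 0.23 from limma) and *Hsd17b12* (-0.40, adjusted p = 0.065), the dehydratase and the ketoreductase that serve the elongases generally. For *Hsd17b12* all WTCR livers lay below all *Dgat1*-/-AL livers, whereas for *Hacd2* these groups overlapped. A dimmer probe set of *Hacd1* gave -0.66 (adjusted p = 0.041) and was also lower in WTCR than in WTAL by -0.43 (adjusted p = 0.15). The count of 5 became 1 without WTCR replicate 2 and 2 without *Dgat1*-/-AL replicate 3. Against WTAL these 4 genes other than *Elovl6* had values of -0.36 (*Hacd1*), -0.36 (*Cyb5b*), -0.17 (*Hacd2*) and -0.19 (*Hsd17b12*) in WTCR. In *Dgat1*-/-AL livers the same genes had 0.18, 0.13, 0.24 and 0.21, and none of these values was called in the fit of all 9 arrays. *Hacd1* was called lower in WTCR without WTCR replicate 2 (-0.54), and *Cyb5b* under 3 alternatives (-0.50 to -0.39).

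**Figure D5:**
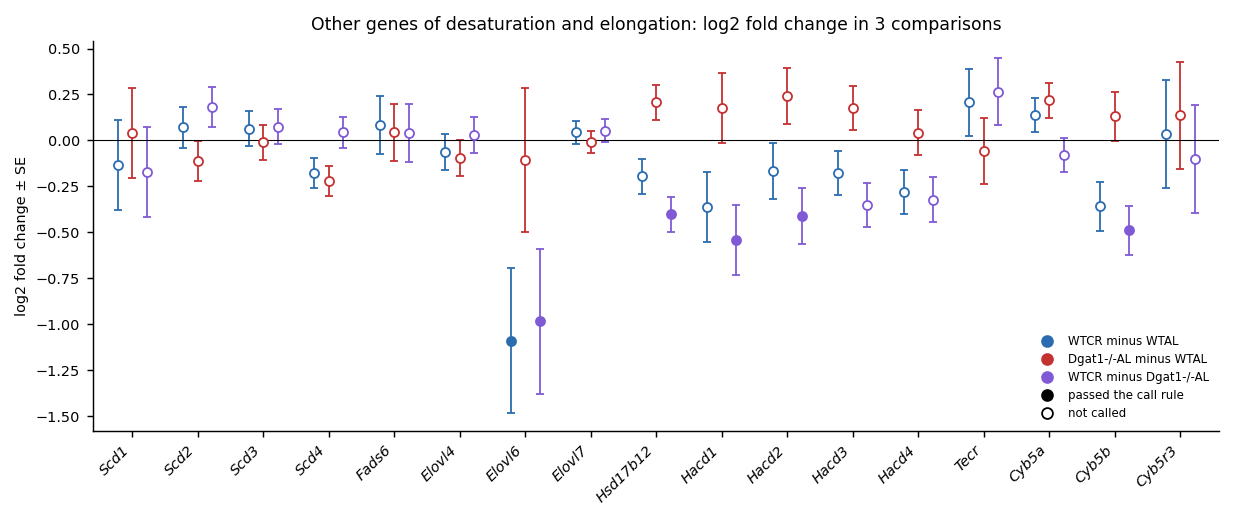
Log2 fold change ± SE from limma (y axis) of the 17 other genes of desaturation and elongation (x axis) in the 3 comparisons, from 3 livers per group; filled points passed the call rule. *Elovl6* is the one gene filled in WTCR minus WTAL, and 5 genes are filled below 0 in WTCR minus *Dgat1*-/-AL.

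Of 12 measured transcriptional regulators of the family, 2 were higher and 1 lower in WTCR than in WTAL livers, where 4.25% of all probe sets were higher and 3.81% lower. The lower one was *Nr1h3*, which encodes LXR alpha (-0.55 ± 0.12, adjusted p = 0.055 from limma). Its signals were 9.34, 9.71 and 9.31 in WTCR, 9.66, 9.90 and 10.01 in *Dgat1*-/-AL, and 10.00, 10.04 and 9.97 in WTAL livers. WTCR lay below WTAL throughout, and WTCR replicate 2 lay above *Dgat1*-/-AL replicate 1. *Insig2*, which holds SREBP precursors in the endoplasmic reticulum, was higher by 0.39 ± 0.16 in WTCR (adjusted p = 0.28) and gave 0.38 ± 0.16 in *Dgat1*-/-AL (adjusted p = 0.97), just under the fold rule, and its WTCR call ended under 9 alternative fits. *Hnf4a*, a hepatocyte transcription factor, was higher by 0.40 ± 0.12 in WTCR (adjusted p = 0.13), a call that ended when the arrays were quantile-normalized again (0.24) and without WTAL replicate 1 (0.29). *Srebf1*, the gene of SREBP-1, gave 0.43 ± 0.29 in WTCR and 0.10 ± 0.29 in *Dgat1*-/-AL, and *Ppara* gave 0.16 ± 0.23 and 0.02 ± 0.23. Neither was called against WTAL. In WTCR minus *Dgat1*-/-AL, 1 of the 12 was called higher (*Hnf4a*, 0.39 ± 0.12, adjusted p = 0.13 from limma) and 1 lower (*Nr1h3*, -0.40 ± 0.12, adjusted p = 0.14). The shares of all probe sets were 4.66% and 3.93%, and each of these calls ended under 3 alternative fits. *Srebf1* gave 0.34 ± 0.29 there and was not called, but without *Dgat1*-/-AL replicate 1 it was 0.64 and called higher (adjusted p = 0.18). None of the 12 was called in *Dgat1*-/-AL livers against WTAL with all 9 arrays as deposited. *Insig2* passed the rule there with median centring (0.38), with quantile normalization repeated (0.41) and without WTAL replicate 1 (0.45).

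Genes of the circadian clock also differed between WTCR and WTAL livers. Of 14 measured, 10 were higher and 1 lower in WTCR (median 0.75), against 4.25% and 3.81% of all probe sets. In WTCR against *Dgat1*-/-AL livers 9 were higher and 3 lower, against 4.66% and 3.93%. None was called in *Dgat1*-/-AL against WTAL. Liver lipid genes are known to follow feeding and the clock. The parts of feeding time and of the hour of killing in the clock and member values were not tested.

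The genes whose log2 signal ran most like each called member over the 9 arrays were found among 5945 probe sets that varied by an SD of at least 0.2. For *Elovl2* they were *Exoc3* (Pearson r = 0.98), *Sdccag8* (0.98) and *Hmgxb4* (0.97). For *Fads2* they were *Tgm1* (0.98), *Slc43a2* (0.97) and *Shisa5* (0.97), and for *Elovl5* *Zswim6* (0.95), *Pknox1* (0.95) and *Tor4a* (0.93). *Elovl3* had weaker likenesses, to *Ptprg* (0.88), *Wdr6* (0.86) and *Hmcn1* (0.84). With 9 arrays that share groups and normalization, such values describe these livers only.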

How the data were processed

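The authors' deposited values are log2 expression signals, made from Affymetrix Mouse Gene 1.0 ST arrays with RMA, which corrects background, quantile-normalizes the arrays and summarizes probes. The version of RMA and the genome build of the array annotation were not given in the sources used here. Gene symbols came from the platform annotation: 21780 of 28815 probe sets carried 1 symbol, 1605 several and 5430 none. No probe set was filtered.

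With limma 3.58.1 in R 4.3.3, 1 mean per group was fitted to all 9 arrays (6 residual degrees of freedom), followed by empirical Bayes moderation and Benjamini-Hochberg adjustment over all 28815 probe sets. A call required more than a 1.3-fold change together with an unadjusted p below 0.05. The fit was tested on simulated data. Named were the 7 members, *Dgat1*, *Scd1*, *Elovl6*, *Srebf1* and *Ppara*. Up to 3 called genes with the largest change were also named per list and comparison, except in the cell marker and clock lists. *Hacd2* and *Hsd17b12* were added after their values were seen. The members and lists were chosen with earlier results of these data known. Where a gene had several probe sets, the brightest was used.

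Replicate numbers in the labels are not stated to mark litters or days. Deviations from group means of same-numbered arrays correlated at 0.48, 0.25 and 0.21 between WTCR and *Dgat1*-/-AL. They correlated at -0.23, 0.05 and -0.07 between WTCR and WTAL, and at -0.32, -0.09 and -0.23 between *Dgat1*-/-AL and WTAL. Deviations cancel within a group, so the values of a comparison are not independent and cannot show whether the numbers mark pairs. The main fit used no replicate block. The number of arrays limits the precision. Promoter windows came from RefSeq (GRCm38.p6), and motifs were searched on both strands.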

Additional observations from a re-analysis of the deposited data

Results flagged for a closer look

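For *Elovl2* the WTCR effect and the *Dgat1*-/-AL effect, both against WTAL, differed by a log2 fold change of -0.55 (adjusted p = 0.058 from limma), which is the direct comparison of WTCR with *Dgat1*-/-AL. All 3 WTCR livers were lower than all 3 *Dgat1*-/-AL livers, as was true of 7.1% of probe sets.

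For *Elovl5* the same difference between effects was -0.41 (adjusted p = 0.31 from limma), with all 3 WTCR livers again lower than all 3 *Dgat1*-/-AL livers. Without WTCR replicate 2 it was -0.17.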

How the results depend on the processing

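The 6 calls of members were each set against 19 alternative fits, and of these 114 values 91 kept the call, 23 lost it and 0 turned direction. In 1 of the 19, the mean of a gene's probe sets, the main fit is repeated, so agreement there was fixed in advance. Fits without a mouse of the group not compared leave the difference itself unchanged. Of 285 values of the 15 differences that were not called, 268 stayed so in the same direction, 7 became calls and 10 turned direction. At an adjusted p under 0.05 the members called numbered 1 in WTCR against WTAL, 0 in *Dgat1*-/-AL against WTAL and 0 in WTCR against *Dgat1*-/-AL. The count for WTCR against *Dgat1*-/-AL was 1 with the replicate block, with each array centred on its median, with the dimmest 33.3% of probe sets left out, with limma-trend, with robust eBayes and with only the 2 groups compared, and it was 3 with the arrays quantile-normalized again. With the array labelled WTAL replicate 2 and *Dgat1*-/-AL replicate 1 both left out, the count for *Dgat1*-/-AL against WTAL was 0. Leaving out each mouse in turn gave 1 to 4 members called in WTCR against WTAL, with 1 (*Elovl2*) without WTCR replicate 2, always 1 in *Dgat1*-/-AL against WTAL, and 1 to 3 in WTCR against *Dgat1*-/-AL. The replicate block changed no call of a member against WTAL, except that *Fads2* lost its call in WTCR when the fit also held only those 2 groups (adjusted p = 0.37). The call that *Fads3* was higher in WTCR than in *Dgat1*-/-AL appeared without *Dgat1*-/-AL replicate 1.

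Directions turned only for small differences. With each mouse left out in turn, *Dgat1*-/-AL minus WTAL ran between -0.27 and 0.15 for *Fads1*, -0.19 and 0.0237 for *Fads3*, -0.27 and 0.29 for *Elovl1*, -0.14 and 0.14 for *Scd1*, -0.094 and 0.11 for *Hnf4a*, -0.10 and 0.12 for *Ppara*, -0.19 and 0.14 for *Ehhadh*, -0.36 and 0.17 for *Elovl6*, -0.21 and 0.26 for *Srebf1*, and -0.0187 and 0.30 for *Agpat3*. WTCR minus WTAL ran between -0.31 and 0.16 for *Scd1* and -0.12 and 0.37 for *Ppara*. WTCR minus *Dgat1*-/-AL ran between -0.42 and 0.0325 for *Fads1*, -0.35 and 0.12 for *Scd1*, -0.14 and 0.35 for *Ppara*, and -0.13 and 0.21 for *Insig2*. Without both arrays named above, *Dgat1*-/-AL minus WTAL was -0.35 for *Elovl1*, 0.049 for *Elovl6*, -0.18 for *Srebf1*, -0.16 for *Ppara* and 0.27 for *Ehhadh*, and WTCR minus *Dgat1*-/-AL was 0.0325 for *Fads1*. With the arrays quantile-normalized again, *Ppara* in *Dgat1*-/-AL minus WTAL was -0.00683 and *Insig2* in WTCR minus *Dgat1*-/-AL was -0.16. The cause of these shifts was not tested. With 3 arrays per group the intervals are wide, and *Elovl3* and *Fads3* had the dimmest signals of the 7, at percentiles 41 and 55.1 of all probe sets.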

Other observations

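Genes of acyl-CoA synthesis and polyunsaturated acyl transfer were examined as a further list. Of 11 measured, 3 were called higher and 0 lower in WTCR than in WTAL livers, against 4.25% and 3.81% of all probe sets. The median log2 fold change of the 11 was 0.08, and 1 of them had an adjusted limma p under 0.05. *Mfsd2a*, which imports lysophospholipids that carry docosahexaenoic acid, had log2 signals of 9.63, 8.70 and 8.48 in WTCR, 7.47, 7.29 and 6.87 in *Dgat1*-/-AL, and 7.15, 7.87 and 7.54 in WTAL livers. All 3 WTCR livers lay above the other 6, and WTCR was 3.31-fold higher than *Dgat1*-/-AL (adjusted p = 0.025 from limma). Against WTAL it was 2.67-fold higher (1.42 ± 0.31 on the log2 scale, SE over 3 mice in each group, adjusted p = 0.048). Over the alternative fits its adjusted p ran from 0.018 to 0.091 against *Dgat1*-/-AL and from 0.034 to 0.21 against WTAL, so neither stayed under 0.05 in all of them. *Agpat3*, an acyltransferase for docosahexaenoic acid, was higher by 0.67 ± 0.18 (adjusted p = 0.095). *Lpcat3*, which places arachidonic and linoleic acid into phospholipids, was higher by 0.61 ± 0.21 (adjusted p = 0.19), and this was no longer called with WTAL replicate 1 or WTCR replicate 1 left out. None of the 11 was called in *Dgat1*-/-AL livers against WTAL with all 9 arrays. Without *Dgat1*-/-AL replicate 1, *Lpcat3* was called lower there (-0.45, against -0.24 with it).

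Of 8 measured genes of peroxisomal chain shortening, 1 was higher in WTCR than in WTAL livers, where 4.25% of all probe sets were. It was *Ehhadh*, the bifunctional enzyme of peroxisomal oxidation (0.60 ± 0.24, adjusted p = 0.27 from limma), and its call ended under 7 alternatives. Against *Dgat1*-/-AL it was higher by 0.63, and by 0.46 and not called without *Dgat1*-/-AL replicate 1. None of 7 ceramide synthases and desaturases was called in any comparison.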
